A study of Mus musculus with 4 samples.

Results

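Cluster 13 is 1 of 17 numbered groups into which the authors sorted the spots of 4 mouse brain sections, and it is described here by what each of its spots was estimated to hold. Its members are the spots that the authors' tables give the number 13. They are 260 of 14809 spots: 38 of 3733 in the control section, 32 of 4156 in the resilient section, 122 of 3443 in the susceptible section and 68 of 3477 in the ketamine-treated section. A spot is a small barcoded patch of a sagittal brain section that captures RNA from the cells, often several, that lie over it. The deposited value is the share of the spot given to each of 67 cell types, so fewer cells of a type and less RNA per cell cannot be told apart.

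All mice were labelled wild type C57. The resilient and susceptible mice had been through chronic social defeat, an ordeal in which a mouse is repeatedly attacked by an aggressor, and were told apart by a social interaction test. The ketamine-treated mouse was a susceptible one given the drug intraperitoneally at 10 mg/kg, with tissue taken 7 days later; the other mice, the control included, received saline. Each group was 1 section, so no value below has a replicate, spots of 1 section are not replicates of a condition, and no p-value was computed. Intervals in brackets are exact Clopper-Pearson 95% intervals and cover counting error only, and neighbouring spots are not independent. Whether the control mouse had been defeated is not stated in the labels used here. Ages were not used here.

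The 4 types that give the cluster its label have different roles. Astrocytes (Astro) support synapses, take up transmitter and send endfeet to the brain's surface and to the outer side of its vessels, and oligodendrocytes (Oligo) make myelin. Vascular leptomeningeal cells (VLMC) are fibroblast-like cells of the meninges and of the sheath around larger vessels. Meis2 is a GABAergic type named for a transcription factor gene.

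The 4 types were all present in cluster 13 of every section. Of the 260 spots, 237 held at least 1 of them, and their shares summed to 71.5% of the control, 69.9% of the resilient, 63.2% of the susceptible and 75.5% of the ketamine-treated spots. Adding CR, a glutamatergic type named for Cajal-Retzius cells (early-born, reelin-secreting neurons of the cortical surface), and V3d, which the headers list as glutamatergic, raised these sums to 85.4%, 80.9%, 83.3% and 86.6%. Astro led 150 of the 260 spots, that is, had the highest share in them, against 41 for Oligo, 21 for VLMC, 15 for CR, 11 for OPC (oligodendrocyte precursors, the dividing cells from which oligodendrocytes arise), 7 for Meis2 and 3 for V3d. Meis2 thus led 7 of the 69 spots that held it, and VLMC 21 of 47. The label holds for the presence of these types, but in the control Oligo, not Astro, had the highest mean, and each led 12 spots there.

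**Figure D1:**
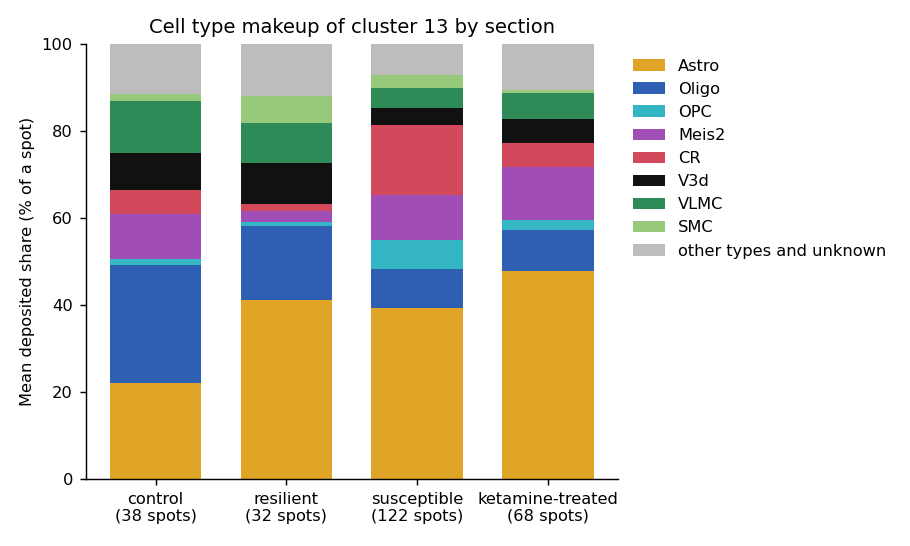
Mean deposited share of each cell type over the cluster 13 spots of the 4 sections, in percent of a spot, stacked to 100. Astro takes 22.0% of the control bar and 39.3% to 47.8% of the other bars, and CR takes 16.0% of the susceptible bar.

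The mean Astro share was 22.0% ± 21.0 (SD over 38 spots) for control, 41.3% ± 26.7 for resilient, 39.3% ± 30.3 for susceptible and 47.8% ± 28.9 for ketamine-treated spots. The control was the lowest and the other sections lay close together. Of the control spots 57.9% held Astro (40.8 to 73.7), as did 87.5% of the resilient (71.0 to 96.5), 72.1% of the susceptible (63.3 to 79.9) and 86.8% of the ketamine-treated ones (76.4 to 93.8). The control and ketamine-treated intervals were apart. Where Astro was held, its median share was 36.4% in the control against 43.3%, 53.2% and 50.9% in the resilient, susceptible and ketamine-treated sections, so both presence and size were lowest in the control. Astro was the whole of 0, 3, 12 and 10 spots in that order. Over the whole sections Astro differed little, at 21.1% to 22.6%.

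Oligo was highest in the control. Its mean was 27.1% ± 30.1 for control, 16.8% ± 21.3 for resilient, 8.99% ± 21.9 for susceptible and 9.54% ± 20.2 for ketamine-treated spots. Of the control spots 55.3% held it (38.3 to 71.4), as did 46.9% of the resilient (29.1 to 65.3), 17.2% of the susceptible (10.98 to 25.1) and 22.1% of the ketamine-treated ones (12.9 to 33.8). The susceptible interval lay below both the control and the resilient one, and the ketamine-treated interval lay below the control one. The control was also highest outside the cluster: over whole sections Oligo was at 22.3%, 16.0%, 13.9% and 12.7% in the order control, resilient, susceptible, ketamine-treated, and in cluster 8 it was at 31.0% in the control against 8.23% to 12.03% in the others. Where held in cluster 13, Oligo took a median of 48.8%, 29.6%, 47.0% and 38.1% of the spot in the same order.

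OPC was concentrated in the susceptible section. It was held by 21 of 122 spots there (17.2%, 10.98 to 25.1) and by 5 of 68 after ketamine (7.35%, 2.43 to 16.3). In the control and resilient sections it was in 1 of 38 and 1 of 32 spots. Its mean share was 1.45% for control, 0.95% for resilient, 6.72% for susceptible and 2.10% for ketamine-treated spots. In the susceptible spots that held it, OPC took 23.0% to 60.6% of the spot and led 9 of the 21. The interval of the susceptible spots overlapped that of each other section.

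Meis2 was similar in 3 of the sections and low in the resilient one. Its mean was 10.4% ± 20.3 for control, 2.53% ± 9.96 for resilient, 10.4% ± 19.96 for susceptible and 12.2% ± 17.7 for ketamine-treated spots. It was in 11, 2, 32 and 24 spots in that order. The resilient section was low outside the cluster too, with Meis2 at 0.34% of the spots left against 1.23% for control, 2.16% for susceptible and 1.58% for ketamine-treated ones. The share of spots was 6.25% in the resilient section (0.766 to 20.8) and 35.3% in the ketamine-treated one (24.1 to 47.8), and these intervals did not overlap; those of the other sections overlapped the resilient one. Meis2 was nearly all of the GABAergic content of the cluster: 100% of the summed GABAergic share in the control and resilient sections, 95.4% for susceptible and 94.4% for ketamine-treated spots. The other GABAergic types seen in more than 1 spot of a section were limited to Lamp5_Lhx6, in 2 susceptible spots.

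VLMC and V3d often went together, least so in the resilient section. VLMC averaged 12.005% ± 20.1 for control, 9.23% ± 16.9 for resilient, 4.59% ± 13.2 for susceptible and 5.87% ± 13.8 for ketamine-treated spots, and was in 11, 9, 15 and 12 spots. V3d stood at 8.30%, 9.40%, 4.04% and 5.52%, in 9, 11, 15 and 12 spots. Of the 47 spots holding VLMC, 33 (70.2%) also held V3d, against 14 of 213 spots without VLMC (6.57%). The sections gave 9 of 11, 5 of 9, 10 of 15 and 9 of 12 VLMC spots with V3d. Of the spots without VLMC, 0%, 26.1%, 4.67% and 5.36% held V3d in the same order. The pairing was thus weakest in the resilient section, where 5 of 11 V3d spots held VLMC (45.5%). Astro was in 60 of the 69 Meis2 spots (87.0%), against 71.7% of the spots without Meis2. It was also in 29 of the 47 VLMC spots (61.7%), against 78.9% of the spots without VLMC. Meis2 was a partner of VLMC in 1 of 47 spots, in the ketamine-treated section. VLMC and Meis2, which share the label of the cluster, thus lay in nearly separate spots.

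Other vessel-wall and vessel-associated types were thinner. Smooth muscle cells (SMC), which wrap arteries, were at 1.62% for control, 6.33% for resilient, 2.97% for susceptible and 0.63% for ketamine-treated spots, in 3, 8, 9 and 2 spots. Endothelial cells (Endo), which line vessels, were at 2.71%, 0.73%, 0.73% and 1.09%. Perivascular macrophages (PVM) were at 2.56%, 1.66%, 0.44% and 1.21%, and microglia (Micro), the phagocytes of brain tissue, at 0.69%, 1.13%, 0.40% and 0.30%. Pericytes (Peri), the mural cells of capillaries, had no kept share in any of the 260 spots, which allows a share of up to 1.15% of spots, while 56 to 74 spots of each whole section held them. The 4 vascular types summed to 16.3% for control, 16.3% for resilient, 8.28% for susceptible and 7.58% for ketamine-treated spots, against 3.10% to 3.89% of the whole sections.

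CR and V3d made up 82.6% of the summed glutamatergic share for control, 56.97% for resilient, 82.8% for susceptible and 71.8% for ketamine-treated spots. CR had a mean of 5.59% ± 12.3 for control, 1.62% ± 6.39 for resilient, 16.0% ± 28.9 for susceptible and 5.66% ± 12.7 for ketamine-treated spots. Of the control spots 18.4% held it (7.74 to 34.3), as did 6.25% of the resilient (0.766 to 20.8), 31.1% of the susceptible (23.1 to 40.2) and 17.6% of the ketamine-treated ones (9.46 to 28.8). The susceptible interval was above the resilient one and overlapped the others. In the susceptible section CR was the whole of 9 spots, and in the other sections of 0. Cortical layer types were rare: L6b_CTX, a deep-layer type, was in 2 susceptible and 1 ketamine-treated spots, L6_IT_ENTl in 2 resilient and 3 ketamine-treated spots, L3_RSP_ACA in 2 resilient spots and L5_PT_RSP_ACA in 1. The subicular types NP_SUB and SUB_ProS were in 2 and 1 control spots. Of the 67 types, 34 had no kept share in any cluster 13 spot.

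**Figure D2:**
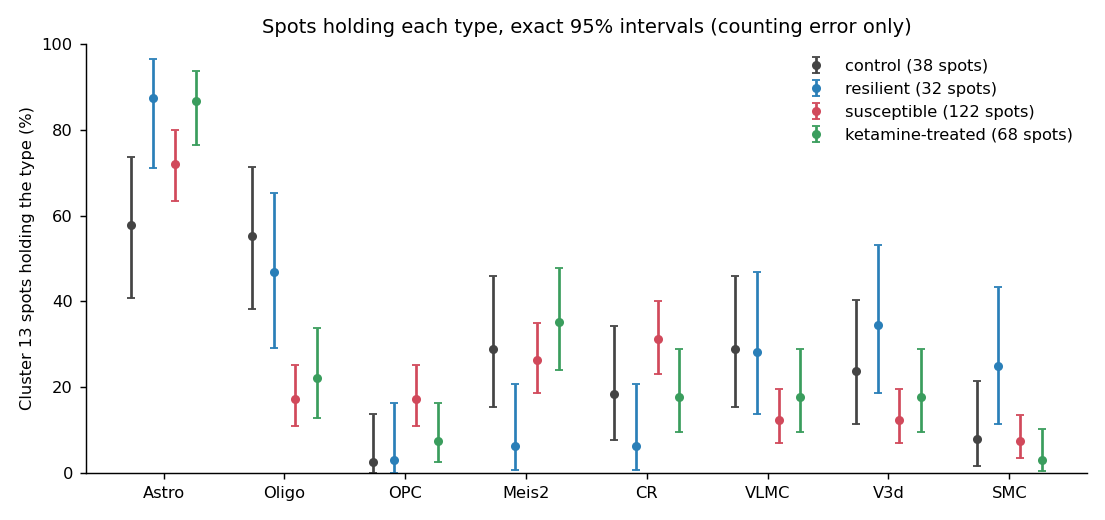
Percentage of cluster 13 spots holding each of 8 cell types in the 4 sections; points are percentages and bars exact 95% intervals that cover counting error only. The Oligo intervals of the susceptible (10.98 to 25.1) and ketamine-treated (12.9 to 33.8) sections lie below that of the control (38.3 to 71.4).

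The spots were more mixed in the control and resilient sections. A cluster 13 spot held 2.63 ± 1.02 types (SD over spots) for control, 2.84 ± 1.14 for resilient, 2.12 ± 0.93 for susceptible and 2.32 ± 1.03 for ketamine-treated tissue, against 2.22, 2.31, 2.06 and 2.14 over the whole sections. Spots of a single type were 3 of 38, 3 of 32, 29 of 122 and 12 of 68. The 260 spots held 93 different combinations of types. The most frequent were Astro with Meis2 in 30 spots, Astro alone in 25, Astro with Oligo in 20, Astro with CR in 13 and Astro with VLMC and V3d in 10. In the control, Astro with Oligo and Meis2 was the most frequent combination, in 4 spots; in the resilient section it was Astro with Oligo, also in 4. In the susceptible and ketamine-treated sections it was Astro with Meis2, in 14 and 12 spots. OPC was beside Astro in 18 of 28 OPC spots, beside CR in 16 and beside Oligo in 5. Of the spots without OPC, 77.2% held Astro, 18.5% CR and 28.9% Oligo. The 16 spots with CR were 13 susceptible and 3 ketamine-treated ones. For Oligo the sections differed. It was in 2 of 21 susceptible OPC spots (9.52%, against 18.8% without OPC) and 2 of 5 after ketamine (40%, against 20.6%). The control OPC spot held Oligo and the resilient one did not.

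On the authors' t-SNE map, which places all sections together in coordinates without a unit, the cluster was not 1 patch. Linking spots closer than 3 units gave groups of 116, 109 and 30 spots. They are called here by the 2 types with the highest mean share over their pooled spots: the Astro-Oligo group, the Astro-Meis2 group and the VLMC-V3d group. The names do not hold in every section: in the resilient spots of the Astro-Meis2 group Meis2 was below Oligo, SMC, V3d and VLMC, and in the susceptible spots of the Astro-Oligo group CR was above Oligo. The other 5 spots were 3 susceptible spots that lay among spots of cluster 16 and 2 single spots. The sizes were the same at linking distances of 2 and 4; at 6 the Astro-Meis2 and VLMC-V3d groups joined into 140 spots. Spots of all 4 sections lay in each of the 3 groups. The map, the clusters and the shares describe the same spots, and the groups were drawn after the map was seen, so their makeup is a description without a test.

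**Figure D3:**
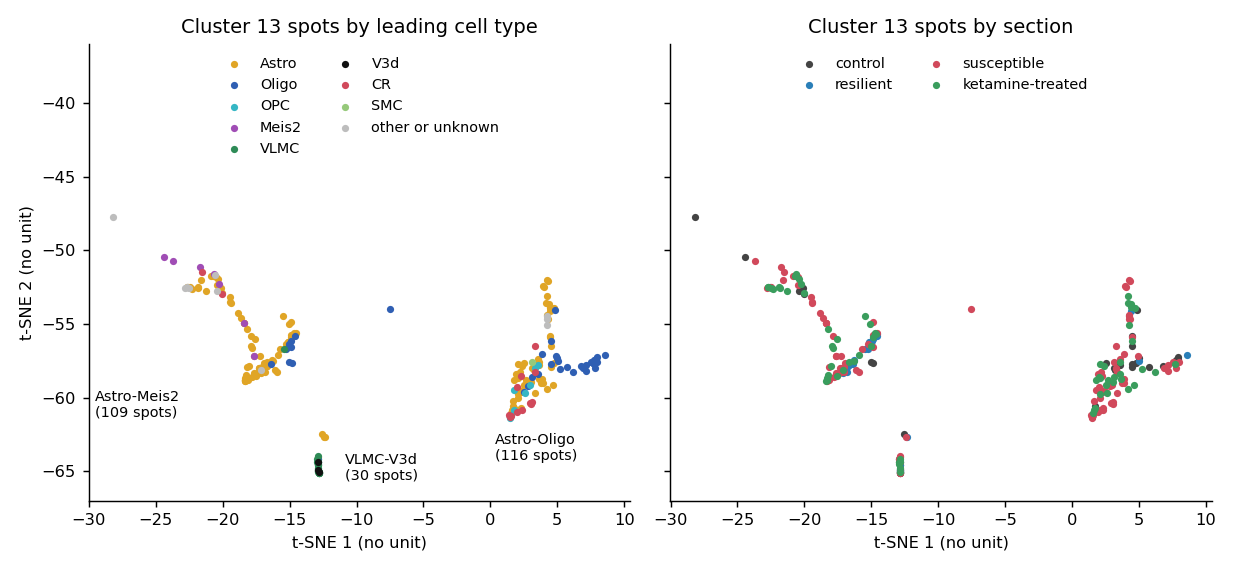
Cluster 13 spots on the deposited t-SNE map (both axes without a unit), coloured by leading cell type on the left and by section on the right; the 3 spots beside cluster 16 lie outside the window. Groups of 109, 30 and 116 spots are apart, and every section has spots in each.

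The VLMC-V3d group had its highest mean shares in VLMC and V3d in all sections. By spots led, VLMC had 20 of the 30, Astro 5 and V3d 3. VLMC was held by 29 of its 30 spots, with a mean of 41.5% ± 12.3 in the control (11 spots), 35.9% ± 23.4 in the resilient (5 spots), 44.9% ± 12.8 in the susceptible (8 spots) and 42.2% ± 12.6 in the ketamine-treated section (6 spots). V3d averaged 28.7%, 24.7%, 23.5% and 26.9% in the same order. Astro and Endo varied more between sections. Astro was at 9.30%, 19.7%, 19.1% and 10.8%, and Endo at 4.41%, 4.69%, 5.06% and 12.3%, the latter on 9 spots in all and 3 after ketamine. Meis2 and OPC were in 0 of the 30 spots, which allows up to 10% of spots.

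The Astro-Meis2 group held Astro in 100 of 109 spots, with a mean of 49.0% ± 25.0, and Meis2 in 40, with a mean of 15.6% ± 23.4. Meis2 stood at 33.1% in the control (6 spots), 3.52% in the resilient (23 spots), 18.3% in the susceptible (47 spots) and 16.9% in the ketamine-treated section (33 spots). Of the resilient spots 8.70% held it (1.07 to 28.0), as did 40.4% of the susceptible (26.4 to 55.7) and 45.5% of the ketamine-treated ones (28.1 to 63.7), where the resilient and ketamine-treated intervals were apart by a narrow margin. Oligo was in 10 of 23 resilient spots of this group (43.5%, 23.2 to 65.5), against 2 of 47 susceptible spots (4.26%, 0.52 to 14.5) and 1 of 33 after ketamine (3.03%, 0.0767 to 15.8). The resilient interval lay above both. SMC was in 17 of the 109 spots, 8 of them resilient, and V3d and VLMC in 24 and 18.

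The Astro-Oligo group held 50 of the 72 Oligo spots of the cluster, 25 of the 28 OPC spots and 41 of the 59 CR spots. VLMC and V3d were in 0 of its 116 spots, which allows up to 2.59% of spots, while every VLMC and V3d spot of the cluster lay in the other 2 groups. Oligo averaged 44.9% ± 29.0 over 20 control spots, 53.6% ± 15.1 over 4 resilient spots, 14.1% ± 27.0 over 63 susceptible spots and 19.4% ± 25.7 over 29 ketamine-treated spots. It was in 85.0% of the control spots (62.1 to 96.8), 25.4% of the susceptible ones (15.3 to 37.9) and 44.8% of those after ketamine (26.4 to 64.3). All 4 resilient spots held it (39.8 to 100). The control and resilient intervals were above the susceptible one and overlapped the ketamine-treated one.

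In this group CR and OPC were highest in the susceptible section. CR was at 7.05% in the control, 23.8% among susceptible and 8.88% among ketamine-treated spots, in 5 of 20, 28 of 63 and 8 of 29 spots, and in 0 of the 4 resilient spots. OPC was at 2.75%, 12.6% and 3.96%, in 1, 20 and 4 spots. The intervals of the OPC spot shares were 0.127 to 24.9 in the control, 20.6 to 44.7 in the susceptible and 3.89 to 31.7 in the ketamine-treated section, and each overlapped the susceptible one.

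**Figure D4:**
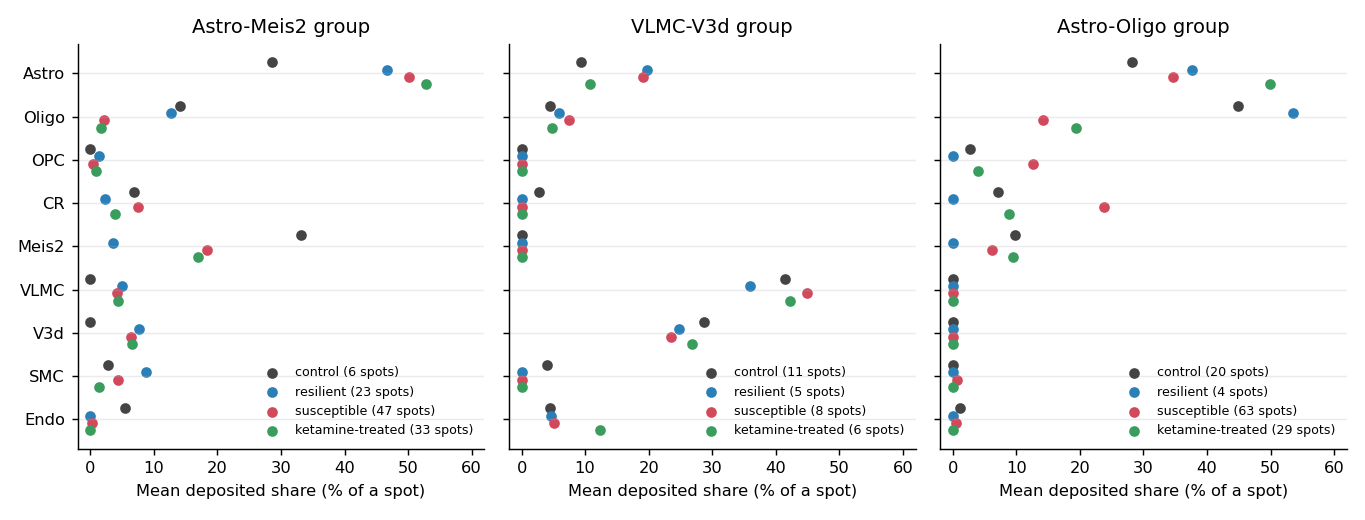
Mean deposited share (percent of a spot) of 9 cell types in the 3 t-SNE groups of cluster 13, 1 point per section; the number of spots behind each point is in the legends. VLMC and V3d sit at 0 in the Astro-Oligo group of all sections, and OPC reaches 12.6% in its susceptible spots.

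The sections filled the groups unequally. The Astro-Oligo group took 52.6% of the cluster's control spots (35.8 to 69.0), 12.5% of its resilient spots (3.51 to 29.0), 51.6% of its susceptible spots (42.4 to 60.8) and 42.6% of its ketamine-treated spots (30.7 to 55.2). The Astro-Meis2 group took 15.8%, 71.9%, 38.5% and 48.5%, and the VLMC-V3d group 28.9%, 15.6%, 6.56% and 8.82%. Of the 32 resilient spots 23 thus lay in the Astro-Meis2 group, where Astro averaged 46.6%, Oligo 12.7%, SMC 8.81%, V3d 7.71%, VLMC 5.03% and Meis2 3.52%. Means over the whole cluster mix these proportions with the makeup of each group. Means with equal group weights are therefore given where they turn a direction or a 1.5-fold call. Equal here means equal between sections, not between groups. In every section a group was weighted by its part of the pooled spots of the 3 groups (116, 109 and 30 spots). Spots outside the 3 groups were left out of these means. These means lean on few spots in places, such as 6 control spots of the Astro-Meis2 group and 4 resilient spots of the Astro-Oligo group.

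The size of the cluster differed between sections more than its counting intervals. It took 1.02% of all control spots (0.721 to 1.39) and 0.77% of all resilient ones (0.527 to 1.09). Its part was 3.54% among susceptible spots (2.95 to 4.22) and 1.96% among ketamine-treated spots (1.52 to 2.47). The control and resilient intervals overlapped, and the susceptible and ketamine-treated ones were apart from these and from each other. Where each section was cut was not analysed here and its part in these sizes was not tested.

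The susceptible section was set against the control to ask how the cluster's makeup differed in a stressed, avoidant mouse. Oligo was lower, at 8.99% against 27.1%, and Astro (39.3% against 22.0%, 1.78-fold), CR (16.0% against 5.59%, 2.86-fold) and OPC (6.72% against 1.45%, 4.64-fold) were higher; the control value of OPC rests on 1 spot. Meis2 averaged 10.4% in both, although within groups it was lower in the susceptible section, at 18.3% against 33.1% in the Astro-Meis2 group and 6.21% against 9.81% in the Astro-Oligo group. VLMC (4.59% against 12.005%), V3d (4.04% against 8.30%), PVM and Endo were lower, and SMC was 1.83-fold higher. Among the 13 types that reached a mean of 1% in the control or the susceptible spots, 12 (92.3%) were past 1.5-fold, against 33.3% over all spots of the 2 sections. With so few spots the 92.3% says little. By exact intervals of spot shares 1 of the 13 types (7.69%) was apart, namely Oligo, against 52.4% of 21 types over all spots. Intervals are wider for 38 and 122 spots than for 3733 and 3443. Shares of types apart in the cluster and over all spots therefore cannot be compared, here or in the comparisons below. With the 3 t-SNE groups given the same weight in both sections, VLMC became higher in the susceptible section, at 7.11% against 4.88%, as did V3d, at 5.53% against 3.37%. Meis2 became lower, at 10.7% against 18.6%, and SMC was 1.29-fold the control. The weighted SMC mean also leaves out a susceptible spot outside the groups that was 100% SMC. SMC was held by 7.38% of the susceptible and 7.89% of the control spots. Oligo was lower with these weights too, at 8.24% against 26.9%.

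The resilient section was set against the control to ask what went with stress without avoidance. Astro was 1.87-fold higher (41.3% against 22.0%) and SMC 3.91-fold higher (6.33% against 1.62%). Meis2 was lower, at 2.53% against 10.4%, as were CR at 1.62% against 5.59%, Oligo at 16.8% against 27.1%, Endo, PVM and OPC, while Micro was 1.63-fold higher. Both OPC and Micro rest on 1 spot in each of these sections. V3d and VLMC were within 1.5-fold. Of 16 types, 14 (87.5%) were past 1.5-fold, against 39.1% over all spots, and 5 of the 14 were at 0 in 1 of the sections. By exact intervals 0 of 16 were apart (0%, against 56.5% over all spots). With equal group weights Oligo turned higher in the resilient section, at 30.5% against 26.9%, a value that rests on 4 resilient spots of the Astro-Oligo group. PVM also turned higher, at 4.34% against 3.94%, and was in 1 of those 4 spots. VLMC turned higher too, at 6.38% against 4.88%. V3d was then 1.84-fold and Micro 1.12-fold the control.

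Susceptible and resilient mice had both been defeated and differed in behaviour. In the susceptible section CR was 9.86-fold higher, OPC 7.11-fold and Meis2 4.12-fold. Oligo, V3d, VLMC, SMC, PVM and Micro were lower, at 0.54, 0.43, 0.50, 0.47, 0.26 and 0.35 of the resilient share, and Astro was level at 0.95. Of 14 types, 13 (92.9%) were past 1.5-fold, against 43.5% over all spots, and 2 (14.3%) were apart by exact intervals, against 60.9%: CR was higher and Oligo lower. VLMC turned higher in the susceptible section with equal group weights, at 7.11% against 6.38%, and V3d was 0.89 of the resilient share, at 5.53% against 6.20%. Astro was then 1.00-fold, at 39.4% in both, and Endo, at 0.73% in both without the weights, was at 0.97% against 0.55%.

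The ketamine-treated section was set against the susceptible one to see the cluster 7 days after dosing. CR was lower, at 5.66% against 16.0%, OPC at 2.10% against 6.72% and SMC at 0.63% against 2.97%, and PVM was higher, at 1.21% against 0.44%. Astro (1.22-fold), Meis2 (1.17-fold), VLMC (1.28-fold), V3d (1.37-fold) and Oligo (1.06-fold) were within 1.5-fold. Of 12 types, 5 (41.7%) were past 1.5-fold, against 14.3% over all spots, and 0 of 12 (0%) were apart by exact intervals, against 19%. Within the Astro-Oligo group the same types kept their order, CR at 8.88% against 23.8% and OPC at 3.96% against 12.6%. With equal group weights VLMC turned to 0.96 of the susceptible share, at 6.86% against 7.11%, and L6b_CTX went from 1.26-fold to 1.52-fold, on 1 and 2 spots.

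Compared with control spots, those after ketamine had 2.17-fold the Astro share (47.8% against 22.0%) and less Oligo (9.54% against 27.1%), and these were the 2 of 14 types (14.3%, against 31.8% over all spots) whose intervals were apart. CR (1.01-fold), Meis2 (1.18-fold) and OPC (1.45-fold) were within 1.5-fold, and VLMC, V3d, Endo, PVM and SMC were lower. Past 1.5-fold were 11 of 14 types (78.6%, against 27.3% over all spots). VLMC and V3d turned higher with equal group weights, at 6.86% against 4.88% and 5.93% against 3.37%. Meis2 turned lower, at 11.5% against 18.6%, and CR, at 5.69% against 6.48%, and OPC was then 1.73-fold the control. These comparisons share sections: the control enters 3 of the 5, so they are not independent of each other.

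Cluster 13 was small but held large parts of some rare types. It held 34.3% of the summed V3d share of the control, 39.2% of the resilient, 49.8% of the susceptible and 40.2% of the ketamine-treated section, the highest of any cluster in each. Of OPC it held 5.25%, 1.84%, 47.4% and 12.003%, and in the susceptible section 21 of the 43 OPC spots. Of CR it held 7.56%, 0.58%, 20.7% and 5.52%, and of Meis2 7.98%, 5.51%, 15.02% and 13.4%. Of VLMC it held 4.90% to 11.4%, and of Astro 1.05% to 6.56%.

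The OPC values of the whole sections depended on these spots. Over all spots OPC was at 0.28% for control, 0.395% for resilient, 0.50% for susceptible and 0.34% for ketamine-treated spots. Without cluster 13 it was at 0.27%, 0.391%, 0.27% and 0.31%. The susceptible section was then 1.02-fold the control instead of 1.79-fold, and 0.70 of the resilient section instead of 1.27-fold. The ketamine-treated section was 1.12-fold the susceptible one instead of 0.68 of it. For CR the susceptible to control ratio moved from 3.64 to 3.21, and for Meis2 from 1.85 to 1.76, so these did not turn.

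**Figure D5:**
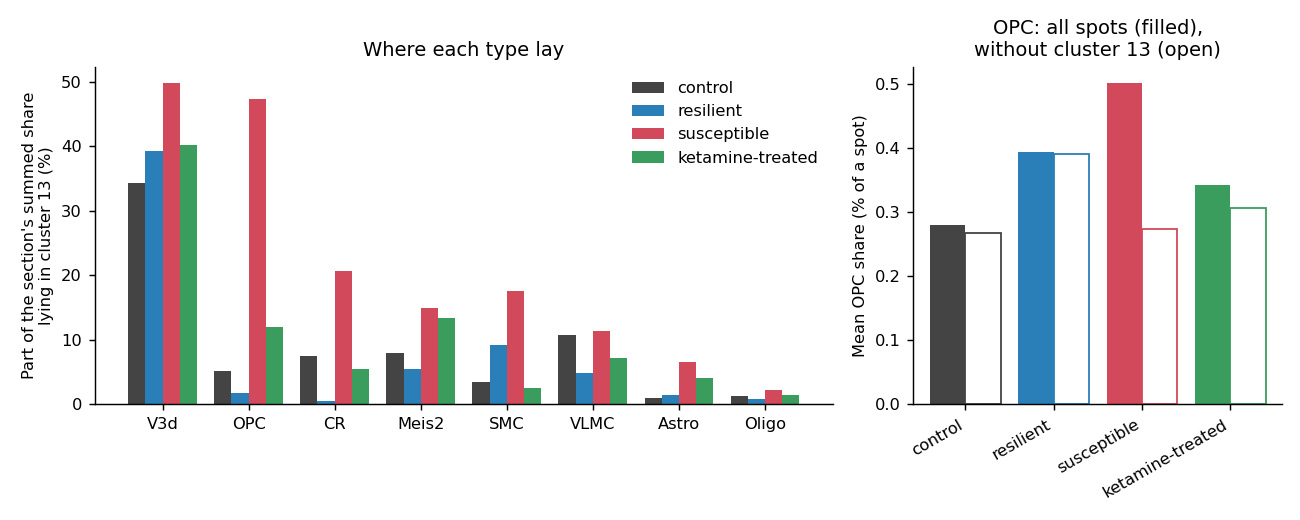
Left, the part of each type's summed share in a section that lay in cluster 13 (percent); right, the mean OPC share over all spots (filled bars) and without cluster 13 (open bars). OPC in the susceptible section is at 0.50% with cluster 13 and at 0.27% without it.

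VLMC in cluster 13 had partly other company than in cluster 12, which held 56.4% to 66.1% of the VLMC share of each section. In cluster 12 VLMC averaged 39.6% to 44.8% of a spot with SMC at 6.24% to 10.2% and Endo at 5.86% to 7.31%, while V3d was at 0 in all 4 sections. In the VLMC-V3d group of cluster 13 VLMC was at 35.9% to 44.9% and V3d at 23.5% to 28.7%. SMC was at 4.07% there in the control and at 0 in the other sections, in 2 of 30 spots. Endo was at 4.41% to 12.3% there, a range that spans that of cluster 12. The other 18 of the 47 VLMC spots lay in the Astro-Meis2 group, where SMC averaged 4.29%. Of all 47 VLMC spots 6 held SMC. Cluster 5 held 58.5% of the control's Meis2 share, 22.8% of the susceptible and 42.9% of the ketamine-treated section's. In the resilient section it had 2 spots and 0% of the Meis2 share. This cluster had Meis2 at 6.22% in the control, 8.09% among susceptible and 9.10% among ketamine-treated spots. Its share of L2_3_IT_ENTl, a type named for the entorhinal cortex, was 18.6% to 28.0% in these 3 sections; in cluster 13 that type was in 1 spot. Cluster 8, with Astro at 33.0% to 43.8%, had 8.43% to 15.6% of its spots without a type, against 0% to 2.94% of cluster 13.

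Set against all 61 section and cluster profiles of at least 20 spots by Bray-Curtis distance (0 for equal makeup, 1 for no overlap), cluster 13 was nearest to a cluster 13 of another section in 3 of 4 sections. The susceptible and ketamine-treated profiles were 0.21 apart and nearest to each other, and the resilient profile was 0.28 from the ketamine-treated one. The control profile was nearest to cluster 11 of the susceptible section, at 0.32, with the resilient and ketamine-treated cluster 13 at 0.33 and 0.34. By Euclidean distance that cluster 11 was again the nearest. The resilient, susceptible and ketamine-treated cluster 13 then ranked only 7, 15 and 18. Within their own section the closest cluster by Bray-Curtis distance was 8 for the susceptible (0.37) and ketamine-treated (0.30) sections. It was 11 for the control (0.38) and 3 for the resilient section (0.42), where cluster 8 was also at 0.42. By Euclidean distance cluster 8 was the closest in all 4 sections. By Bray-Curtis distance the control and the susceptible cluster 13 were the least alike pair, at 0.39. By Euclidean distance it was the control and the ketamine-treated one, at 32.2 against 29.2 points.

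Sections shared between 2735 and 3304 barcodes, which mark array positions and not cells. At most 10 barcodes were in cluster 13 of both sections of a pair, in the susceptible and ketamine-treated pair.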

How the data were processed

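Spatial transcriptomics was run on 4 sections, 1 per group. The deposited tables give each spot a cluster number and, as a fraction of the spot, what part the authors gave to each of 67 cell types or to unknown. Per the submitters' processing notes, reads were placed on mm10. How reads were aligned and counted, spots clustered and types assigned is not given in the sources used here. No share under 10.1% of a spot was kept. A further deposited table holds t-SNE scores, the coordinates of 14809 spots, per the file headers; each of its barcode suffixes matched 1 section by an identical barcode set. Neither gene counts nor spot positions were analysed here. Depth is unknown, and precision rests on the number of spots.

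Mean shares over the cluster 13 spots, spots holding a type and spots led by it were computed with Python 3.11.15, pandas 2.3.3 and scipy 1.17.1. A comparison took the types that reached a mean of 1% in 1 or both of its sections, and a ratio of 1.5 was called. Types at 0 in 1 section were called too. In the order of the comparisons above they were 3 of 12, 5 of 14, 4 of 13, 1 of 5 and 4 of 11 called types. Named types were Astro, Oligo, Meis2, VLMC and all others with a mean of at least 1% in cluster 13 of a section. Single linkage at a distance of 3 gave the t-SNE groups. The ratio rule and the linkage were run on simulated data. How they perform at the spot numbers of cluster 13 is not given here. The cluster, types and lists were chosen with earlier results of these data known.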

Additional observations from a re-analysis of the deposited data

How the results depend on the processing

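With few spots, 1 spot moves a mean by up to 2.63 points in the control, and counts of types past 1.5-fold moved with the setting. For susceptible against resilient (13 types) the count was 20 by spots holding a type, 6 by spots led and 21 with a minimum mean of 0.5%. It was 8 with the t-SNE group weights equal between sections. For resilient against control (14) it was 6 by spots led, and 9 at a fold of 2, with equal weights and over types seen in both sections. For ketamine-treated against susceptible (5) it was 12 by spots holding and 10 with the 0.5% minimum. For ketamine-treated against control (11) it was 18 by spots holding and 7 over types seen in both sections. Of 340 recomputed differences of named types, 21 changed sign, 14 of them with equal weights, and 8 of the 21 were past 1.5-fold before. Of these 8, with equal weights, VLMC turned to 2.23 points (susceptible minus control), 0.728 (susceptible minus resilient) and 1.98 (ketamine-treated minus control), V3d to 2.16 and 2.56 (each minus control), and in resilient minus control Oligo to 3.598 and PVM to 0.406. Micro turned to 0.343 (susceptible minus control) when shares under 20% were set to 0. The equal weights remove the unequal filling of the t-SNE groups by construction. The turn in Micro rests on 2 susceptible spots and 1 control spot. In 1 susceptible spot Micro was at 22.2%, while Astro, VLMC, V3d and Endo were each under 20%. With those set to 0 and the rest of the spot rescaled, Micro took a larger part of that spot. Leaving out spots without a type kept the cluster's share of each section inside its interval. The equal weights, the restriction to types seen in both sections and the t-SNE groups were chosen after seeing the data. No paired analysis was possible because each group had 1 section.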
